A study of Homo sapiens with 4 samples.

Results

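The enzymes and transporters that carry glucose to lactate, to acetyl-CoA or into the pentose phosphate branch were followed in a uveal melanoma cell line given CCCP, DHA or both. The group holds 33 of the 58735 genes in the deposited tables. They were chosen by name for their place in these pathways, with earlier results of these data known. Their shares set beside those of all genes are therefore descriptions. All 33 reached a level of 1 FPKM, a read count divided by exon length and library size, in at least 1 library, as was required of the 13678 genes compared below. The cells were OMM2.3, an established uveal melanoma line, cultured with 10% fetal bovine serum in every group. Control, CCCP, DHA and the combination of CCCP with DHA made up the 4 groups, with 1 RNA sequencing library each and no genetic change named in the labels. CCCP is a protonophore, which carries protons across the inner mitochondrial membrane and so uncouples respiration from making ATP. DHA is given by its initials alone, and the sources used here name no dose or time. Since a group is a single library, replicate spread is unknown, and the bracketed ranges after fold differences are 95% exact intervals on read counts, without biological or library error.

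Glycolysis splits glucose into pyruvate in the cytosol and yields ATP without oxygen. Lactate dehydrogenase reduces pyruvate to lactate, which leaves the cell through monocarboxylate transporters. Inside mitochondria, the pyruvate dehydrogenase complex turns pyruvate into acetyl-CoA unless its kinases switch it off. The pentose phosphate branch takes glucose 6-phosphate aside to make NADPH and ribose 5-phosphate. Many glycolytic genes, SLC2A1, PGK1, LDHA and PDK1 among them, are known targets of hypoxia-inducible factor, and tumor cells commonly express glycolytic genes highly in the presence of oxygen.

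The recovered reads summed to between 16900411 and 18937286 per library, and protein-coding genes held 97 to 97.7% of them. Of 9 melanocyte lineage markers, 3 reached 1 FPKM (MITF, PMEL and GPNMB), and PAX3 and TYR had 0 reads in all 4 libraries. The lineage markers summed to 45.5, 44.7, 36.4 and 29.8 FPKM in control, CCCP, DHA and both. None of 5 leukocyte markers, 3 endothelial markers or 4 muscle and liver markers reached 1 FPKM. Of 6 fibroblast markers COL1A1 and PDGFRB did, and the list summed to 17, 12.4, 7.86 and 4.43 FPKM in the same order. Of 5 epithelial markers KRT8 and KRT18 did, and that list summed to 375, 298, 344 and 267 FPKM. The part of these marker differences in the results below was not tested.

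Several members share exon bases with another annotated gene, which matters where reads in shared bases are dropped. ALDOA shares 42.3% of its exon bases with AC093512.2 on the same strand, and LDHB shares 33.4% with AC010197.2. The labelled kit does not mark strand, and on the opposite strand PDK2, RPE and PDHA1 share 38.6, 23.8 and 21.3% with SAMD14, KANSL1L and MAP3K15. How the authors assigned such reads is not stated, so the levels of these 5 genes are uncertain. Processed pseudogenes named for a member took at most 1.05% of the parent's reads in TPI1 and 0.411% in GAPDH. PKM is given as 1 gene, so its M1 and M2 splice forms are not told apart.

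**Figure D1:**
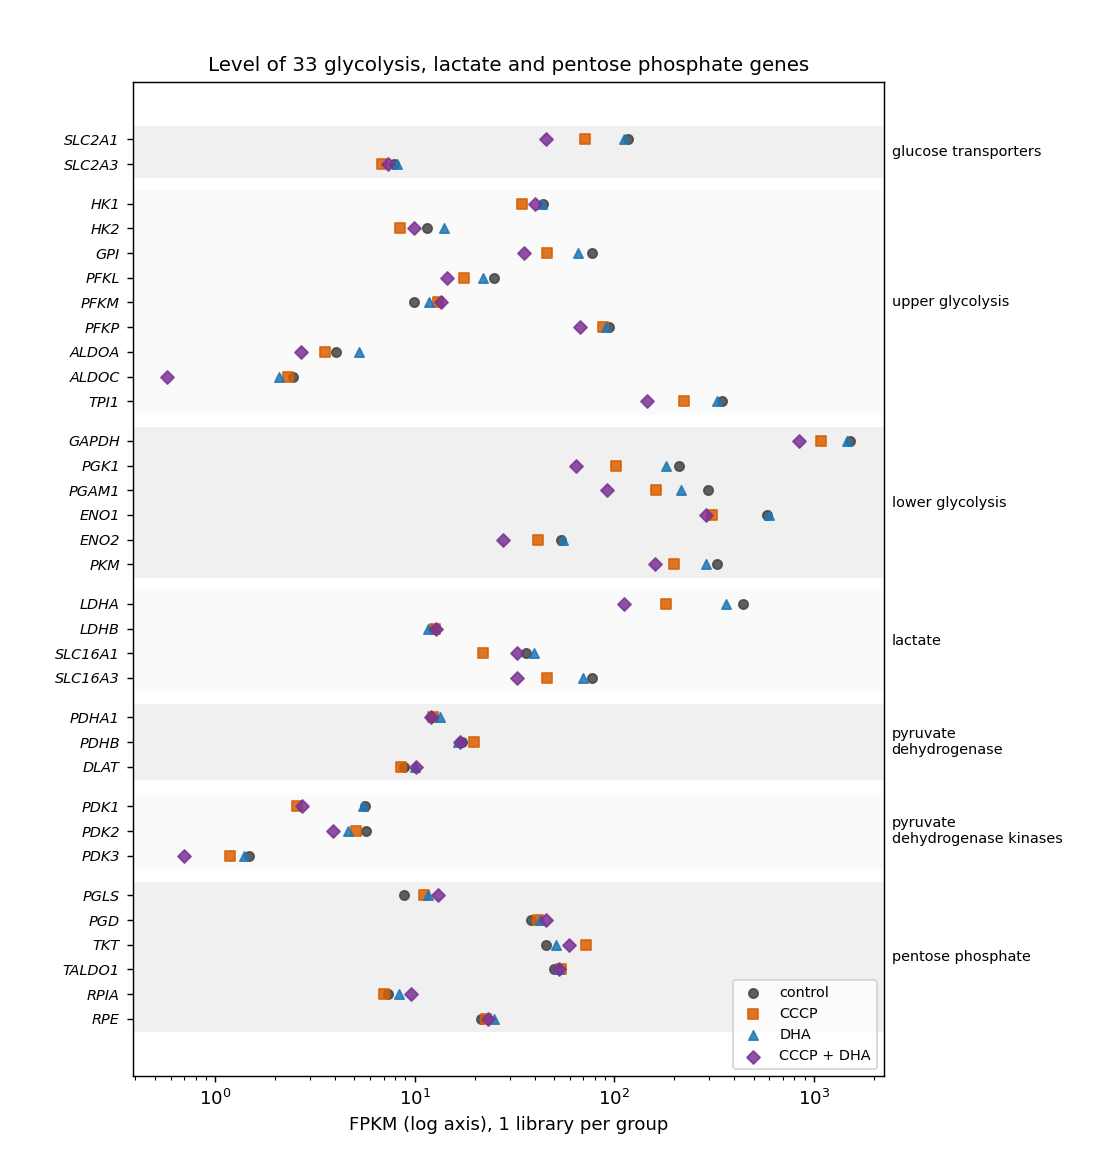
Level of each of the 33 genes in FPKM (x axis, logarithmic) in the 4 libraries, grouped by role, with 1 symbol per library. In lower glycolysis and for LDHA the control and DHA symbols lie to the right and the CCCP + DHA symbols to the left, with GAPDH between 844 and 1516 FPKM, whereas the pyruvate dehydrogenase and most pentose phosphate symbols lie close together.

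The summed mRNA level of the group was smaller in the CCCP libraries. The 33 genes together held 4514 FPKM in control, 2939 under CCCP, 4228 under DHA and 2299 under both. As a share of all reads this was 2.14% in control, 1.31% under CCCP, 1.92% under DHA and 1.07% under both. Both libraries with CCCP lay below both without it. Leaving GAPDH aside, the remaining 32 genes summed to 2998, 1854, 2769 and 1455 FPKM, in the same order of libraries. In such bulk RNA, fewer cells of a type and less RNA per cell cannot be told apart.

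CCCP alone against control addressed the response of these genes to the uncoupler. On the log2(FPKM + 0.5) scale, 2 of the 33 genes, LDHA and PGK1, were at least 2-fold lower, against 2.32% of all genes tested. Scaled to equal summed FPKM, 4 were. At a smaller size of 1.5-fold, 11 genes were lower, against a background of 6.46%, or 3.08% among the 6402 protein-coding genes whose mean was 5 FPKM or more. These were SLC2A1, GPI, TPI1, PGK1, PGAM1, ENO1, PKM, LDHA, SLC16A1, SLC16A3 and PDK1. No gene of the group was at least 2-fold higher (3.21% of all genes), and TKT alone was at least 1.5-fold higher (7.84%). The group's median log2 ratio was -0.23, with 24 genes (72.7%) below control, where the median of all genes tested was 0.00 and 49.3% were below. Over the 28 genes with a mean of 5 FPKM or more it was -0.36. The values differed by role, with medians of -0.79 for the 6 lower glycolysis genes, -0.34 for the 9 upper glycolysis genes and 0.12 for the 6 pentose phosphate genes.

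DHA alone against control asked the same for the other compound, and the differences were small. None of the 33 genes was 2-fold lower (1.86% of all genes) or higher (2%), and none passed 1.5-fold in either direction (4.15% lower and 4.43% higher). The log2 ratios ran from -0.44 for PGAM1 to 0.37 for PGLS, with a median of -0.03, which was 0.01 over the 28 genes with a mean of 5 FPKM or more. By role, all 6 pentose phosphate genes lay above control, as 49.9% of all genes did. Of these, 5 had an interval above equality, as did 18.1% of all genes and 1685 of the 6402 well expressed coding genes. Below control were 4 of 6 lower glycolysis genes and 49% of all genes. With libraries scaled to equal summed FPKM, TALDO1 of the former lay on the other side, as did ENO1 and ENO2 of the latter, so that 5 lay above and 6 below.

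CCCP and DHA together against control addressed the joint response, and here 10 of the 33 genes were at least 2-fold lower, against 5.44% of all genes and 4.11% of the well expressed coding genes. They were SLC2A1, GPI, ALDOC, TPI1, PGK1, PGAM1, ENO1, PKM, LDHA and SLC16A3, which span uptake, both stages of glycolysis, and lactate formation and export. At 1.5-fold there were 15 lower genes, against 12.7%, with GAPDH, ENO2, PFKL, PDK1 and PDK3 added. No gene was 2-fold (4.52%) or 1.5-fold (11.1%) higher. The median log2 ratio was -0.50 over the group and 0.01 over all genes tested. Without the 5 genes whose mean was under 5 FPKM the group's median was -0.18. Just inside the 2-fold rule lay ENO1 at -1.02 and PKM at -1.04, and just outside it ENO2 at -0.96 and PDK1 at -0.92.

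**Figure D2:**
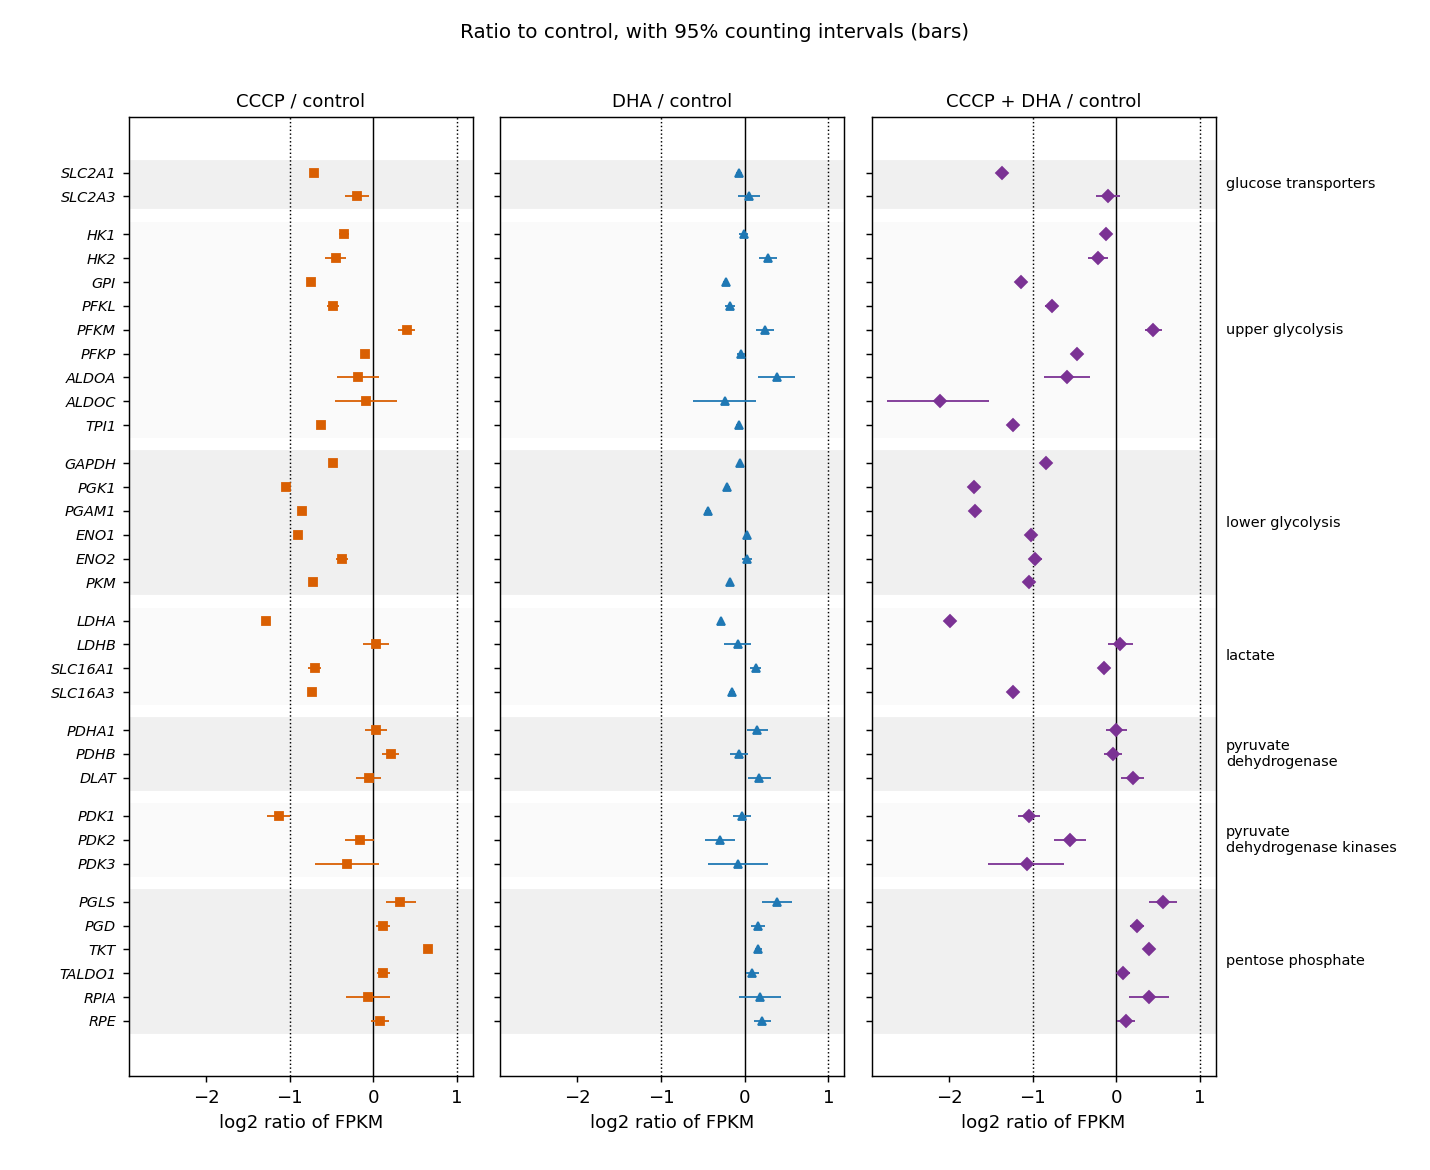
Log2 ratio of FPKM to control for each gene (x axis, no pseudocount) with CCCP, DHA and both in 3 panels. Bars are 95% counting intervals, dotted lines mark 2-fold, and the pentose phosphate genes lie at or above 0 with both compounds while LDHA lies at 3.98-fold lower.

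SLC2A1 encodes GLUT1, the main basal glucose transporter (ENSG00000117394, chromosome 1, 42925375 to 42959176 on GRCh38). Across the libraries it stood at 118 FPKM in control, 71.8 under CCCP, 112 under DHA and 45.6 under both. DHA was 1.05-fold (1.02 to 1.08) below control, whereas CCCP was 1.64-fold (1.59 to 1.69) and both 2.58-fold (2.49 to 2.68) below control. SLC2A3, the high-affinity transporter GLUT3, was at 7.89, 6.89, 8.19 and 7.38 FPKM in the same order. It differed little, and with both compounds its interval of 0.972 to 1.18-fold lower included equality.

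Hexokinases trap glucose as glucose 6-phosphate, and neither isozyme passed 1.5-fold. HK1 was at 43.8 FPKM in control, 34.4 under CCCP, 43.3 under DHA and 40.3 under both. HK2, the inducible isozyme, was at 11.6, 8.47, 14.1 and 9.96 FPKM. Both hexokinases were lowest with CCCP alone. HK2 was highest with DHA, 1.22-fold (1.13 to 1.31) above control. GPI, which isomerizes glucose 6-phosphate to fructose 6-phosphate, was at 77.4, 46, 66 and 35.2 FPKM. It stood apart from the hexokinases in being lowest with both compounds, 2.2-fold (2.14 to 2.27) below control.

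Phosphofructokinase commits sugar to glycolysis, and its isozyme genes lay in different directions. PFKP, the platelet type and the most abundant, was at 94 FPKM in control, 87.6 under CCCP, 91 under DHA and 67.7 under both. PFKL, the liver type, was at 24.9, 17.8, 22 and 14.6 FPKM, 1.71-fold (1.62 to 1.8) below control with both. PFKM, the muscle type, was at 9.94, 13.1, 11.8 and 13.5 FPKM. Alone among the glycolytic enzyme genes it lay above control with both compounds, 1.36-fold (1.27 to 1.46) above control, and its interval excluded equality in each of the 3 comparisons with control.

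Aldolase splits fructose 1,6-bisphosphate, and triose-phosphate isomerase interconverts the products. ALDOA was listed at 4.04 FPKM in control, 3.56 under CCCP, 5.26 under DHA and 2.69 under both. AC093512.2, with which it shares exon bases, had 32 to 58 reads per library. ALDOC was at 2.47, 2.33, 2.1 and 0.574 FPKM, resting on 141, 114, 106 and 29 reads. Its intervals with CCCP and with DHA included equality, and with both it was 4.31-fold (2.88 to 6.67) below control. TPI1 was far more abundant, at 346, 224, 329 and 146 FPKM. Its order matched that of SLC2A1, with CCCP 1.54-fold (1.5 to 1.58) and both 2.36-fold (2.29 to 2.43) below control.

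The 6 lower glycolysis genes, from glyceraldehyde 3-phosphate to pyruvate, were all below control in both CCCP libraries. GAPDH, whose enzyme makes NADH and is often used as a reference transcript, was at 1516 FPKM in control, 1085 under CCCP, 1459 under DHA and 844 under both. It was the 15th most abundant gene in control and 1.8-fold (1.77 to 1.82) lower with both compounds. It was below control under equal summed FPKM as well, at log2 -0.87 with both, so its level was not constant over these libraries.

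PGK1 makes the first ATP of the pathway (ENSG00000102144, chromosome X, 77910739 to 78129296 on GRCh38). It was at 210 FPKM in control, 102 under CCCP, 182 under DHA and 64.6 under both. PGAM1, phosphoglycerate mutase, was at 295, 163, 217 and 91.6 FPKM. With both compounds these genes were 3.25-fold (3.16 to 3.35) and 3.21-fold (3.1 to 3.33) below control. On the log2(FPKM + 0.5) scale they followed LDHA, at -1.69 and -1.68, and at a pseudocount of 0.1 ALDOC lay between LDHA and them. PGAM1 also had the lowest ratio with DHA alone, 1.36-fold (1.32 to 1.39) below control.

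The enolases and pyruvate kinase close the pathway. ENO1 was at 581 FPKM in control, 311 under CCCP, 594 under DHA and 287 under both. Its pair of CCCP libraries lay close together, and so did its pair without CCCP. ENO2, the neuronal enolase gene, was at 54.1, 41.7, 55.2 and 27.6 FPKM, and PKM at 328, 199, 290 and 160 FPKM. Unlike ENO1, both had a clearly lower value with both compounds than with CCCP alone, by 1.51-fold (1.43 to 1.6) for ENO2 and 1.25-fold (1.23 to 1.27) for PKM.

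LDHA encodes the subunit of lactate dehydrogenase that favors lactate formation (ENSG00000134333, chromosome 11, 18394388 to 18408425 on GRCh38), and it had the lowest ratio of the group with CCCP and, on the log2(FPKM + 0.5) scale, with both. As a plain FPKM ratio the much weaker expressed ALDOC was lower with both. Across the libraries it stood at 443 FPKM in control, 182 under CCCP, 362 under DHA and 111 under both. That is 2.44-fold (2.4 to 2.48), 1.22-fold (1.21 to 1.24) and 3.98-fold (3.9 to 4.05) below control. With both compounds, 0.694% of the genes tested had a lower log2 ratio. LDHB, the subunit that favors pyruvate, was listed at 12.4, 12.7, 11.7 and 12.9 FPKM. Its intervals included equality in all 5 comparisons, running from 0.93 to 1.15-fold of control with both.

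Of the monocarboxylate transporters, which carry lactate with a proton, SLC16A3 (MCT4, an exporter of highly glycolytic cells) was at 77.3 FPKM in control, 46.3 under CCCP, 69.7 under DHA and 32.7 under both. SLC16A1 (MCT1) was at 36.1, 22.1, 39.5 and 32.5 FPKM. With CCCP alone both were lower by a like amount, 1.67-fold (1.62 to 1.72) and 1.63-fold (1.54 to 1.72). In the library with both compounds they parted, SLC16A3 at 2.36-fold (2.29 to 2.44) and SLC16A1 at 1.11-fold (1.06 to 1.16) below control. SLC16A1 was in fact higher with both than with CCCP alone, by 1.47-fold (1.39 to 1.56).

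Start regions of the genes with the lowest ratios are shown because several known targets of hypoxia-inducible factor are among them, and its binding sites are built on the letters ACGTG. RefSeq windows on GRCh38.p14 of 300 bases, from 250 before to 50 after the transcript start, were found for 31 of the 33 genes. They are written 5′ to 3′ on the gene's strand, in lower case, with capitals for ACGTG on either strand (read as CACGT when on the other). Overlapping matches make CACGTG, the E-box. LDHA is the upstream window of 2 (chr11:18394313-18394612, plus strand), PGK1 is chrX:78103998-78104297 (plus), PGAM1 is chr10:97427568-97427867 (plus), ALDOC is chr17:28576846-28577145 (minus) and SLC2A1 is chr1:42958819-42959118 (minus).
LDHA: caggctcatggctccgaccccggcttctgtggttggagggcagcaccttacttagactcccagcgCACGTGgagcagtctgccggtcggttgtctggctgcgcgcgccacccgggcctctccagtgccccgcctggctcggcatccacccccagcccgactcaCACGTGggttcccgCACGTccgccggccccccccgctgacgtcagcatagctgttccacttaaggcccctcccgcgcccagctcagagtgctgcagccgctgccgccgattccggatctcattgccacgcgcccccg
PGK1: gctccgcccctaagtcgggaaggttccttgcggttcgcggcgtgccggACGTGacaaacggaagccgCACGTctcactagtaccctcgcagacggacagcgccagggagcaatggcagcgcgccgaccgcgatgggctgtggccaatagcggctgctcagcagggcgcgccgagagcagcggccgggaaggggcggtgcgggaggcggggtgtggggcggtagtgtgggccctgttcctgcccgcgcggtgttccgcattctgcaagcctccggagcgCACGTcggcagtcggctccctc
PGAM1: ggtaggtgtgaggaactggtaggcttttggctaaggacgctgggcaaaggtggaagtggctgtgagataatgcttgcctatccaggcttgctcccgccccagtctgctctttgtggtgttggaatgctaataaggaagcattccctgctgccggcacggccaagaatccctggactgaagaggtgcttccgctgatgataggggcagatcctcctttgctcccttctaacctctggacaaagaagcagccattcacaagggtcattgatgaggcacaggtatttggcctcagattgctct
ALDOC: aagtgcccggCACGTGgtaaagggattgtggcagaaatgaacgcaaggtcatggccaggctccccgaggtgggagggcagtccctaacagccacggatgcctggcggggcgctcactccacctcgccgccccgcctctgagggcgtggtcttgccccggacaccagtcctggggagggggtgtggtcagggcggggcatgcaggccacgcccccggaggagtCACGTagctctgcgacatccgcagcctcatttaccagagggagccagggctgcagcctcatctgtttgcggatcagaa
SLC2A1: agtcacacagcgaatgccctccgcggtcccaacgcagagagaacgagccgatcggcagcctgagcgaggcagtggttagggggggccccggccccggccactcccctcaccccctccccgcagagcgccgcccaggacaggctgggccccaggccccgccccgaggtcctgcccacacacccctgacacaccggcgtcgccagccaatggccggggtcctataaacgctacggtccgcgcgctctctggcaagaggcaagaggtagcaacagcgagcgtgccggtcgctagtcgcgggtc

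Matches were unevenly spread over these 5 windows. LDHA held 5 matches of ACGTG, 4 of them paired into 2 E-boxes, PGK1 held 3 and ALDOC 3, while PGAM1 and SLC2A1 held 0. The windows of PGK1, PGAM1, ALDOC and SLC2A1 lie inside the bounds of the annotated gene. PGAM1 begins at 97426160, upstream of its window at 97427568, so the region at that gene start was not searched. Among all 35116 windows in the table, 21.4% held ACGTG and 7.26% CACGTG, and among the 13129 windows of genes tested 25.8% and 9.52% did. Of the 58 windows of the 31 genes, 22 (37.9%) held ACGTG and 7 (12.1%) CACGTG. By gene, 18 of the 31 (58.1%) had at least 1 window with ACGTG, against 33% of the genes tested and 24.9% of all genes in the table, where a gene can have several windows. Such a window was found for 6 of the 10 genes at least 2-fold lower with both compounds and for 12 of the other 21. Of the 6 pentose phosphate genes only PGD had a match. A match is a string of letters and not a bound site, and a window without one says nothing of sites elsewhere.

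The pyruvate dehydrogenase complex showed no difference of this size. PDHA1, a subunit of its first enzyme, was at 12.1 FPKM in control, 12.3 under CCCP, 13.4 under DHA and 12.1 under both. PDHB, the other subunit of that enzyme, was at 17.2, 20, 16.4 and 16.8 FPKM, and DLAT, the acetyltransferase, at 8.89, 8.56, 10 and 10.2 FPKM. With both compounds their log2 ratios to control lay between -0.03 and 0.19.

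Its kinases, which phosphorylate the complex and turn it off, were lower with both compounds, and PDK1 was also lower with CCCP alone. PDK1 was at 5.63 FPKM in control, 2.57 under CCCP, 5.51 under DHA and 2.74 under both. The libraries split by CCCP and hardly by DHA, with CCCP 2.19-fold (2 to 2.41) and both 2.06-fold (1.88 to 2.25) below control as plain FPKM ratios. On the scale with the pseudocount both ratios miss 2-fold, narrowly with CCCP and at log2 -0.92 with both. PDK2 was at 5.72, 5.1, 4.65 and 3.9 FPKM and PDK3 at 1.47, 1.19, 1.4 and 0.702 FPKM. Both were lowest with both compounds, 1.47-fold (1.29 to 1.67) and 2.1-fold (1.54 to 2.89) below control, the latter on 142 and 60 reads. On the scale with the pseudocount PDK3 was at log2 -0.72 with both and so missed 2-fold as well. With CCCP alone the intervals of PDK2 and PDK3 included equality.

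The pentose phosphate genes lay above control except RPIA with CCCP, and RPE with CCCP and TALDO1 with DHA lay below it under equal summed FPKM. With both compounds all 6 were above control, where 50.8% of all genes were. Each interval lay above equality, as for 30.8% of all genes, though none reached 1.5-fold. Of the 6402 protein-coding genes with a mean of 5 FPKM or more, 2436 had such an interval. PGLS, the lactonase of the oxidative stage, was at 8.9 FPKM in control, 11.1 under CCCP, 11.6 under DHA and 13.1 under both, 1.47-fold (1.31 to 1.66) higher with both. PGD, which makes NADPH and ribulose 5-phosphate, was at 38.2, 41.4, 42.7 and 45.4 FPKM. Control was the lowest library for both of these oxidative genes and the combination the highest.

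Of the nonoxidative stage, TKT, transketolase, was at 45.6 FPKM in control, 72 under CCCP, 51.1 under DHA and 59.6 under both. It was highest with CCCP alone, 1.58-fold (1.53 to 1.62) above control. RPIA, which makes ribose 5-phosphate, was at 7.37, 7.06, 8.35 and 9.66 FPKM, and TALDO1, transaldolase, at 49.9, 54.1, 53.1 and 53 FPKM. RPE, the epimerase, was at 21.6, 22.8, 25 and 23.4 FPKM. RPIA was highest with both compounds, 1.31-fold (1.11 to 1.55) above control, while TALDO1 and RPE stayed within 1.16-fold of control in every library. Summed, the 6 genes held 171.5, 208.4, 191.8 and 204.1 FPKM in control, CCCP, DHA and both.

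Isozyme shares, taken within each library from FPKM, which is per length, moved where the isozymes of a family differed from control by unequal amounts. LDHA held 97.3% of the summed LDHA and LDHB level in control, 93.5% under CCCP, 96.9% under DHA and 89.7% under both. The share of LDHB in the library with both compounds, 10.4%, came with a nearly constant LDHB and a lower LDHA. SLC16A1 held 31.8, 32.4, 36.2 and 49.9% of its pair, so that the 2 lactate transporters were about equal in level with both compounds. SLC2A3 held 6.28, 8.75, 6.79 and 13.9% of the pair of glucose transporters.

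Among the phosphofructokinases PFKP stayed dominant, at 70.7 to 73.9%, while PFKM went from 7.72% in control to 14.1% with both. HK1 held 75.5 to 80.3% of the hexokinase level and ENO1 88.2 to 91.5% of the enolase level. PDK1 held 43.9% of the kinase level in control, 29% under CCCP, 47.7% under DHA and 37.3% under both. These families differed from one another in whether the share moved, and the aldolase shares rest on the uncertain ALDOA level.

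**Figure D3:**
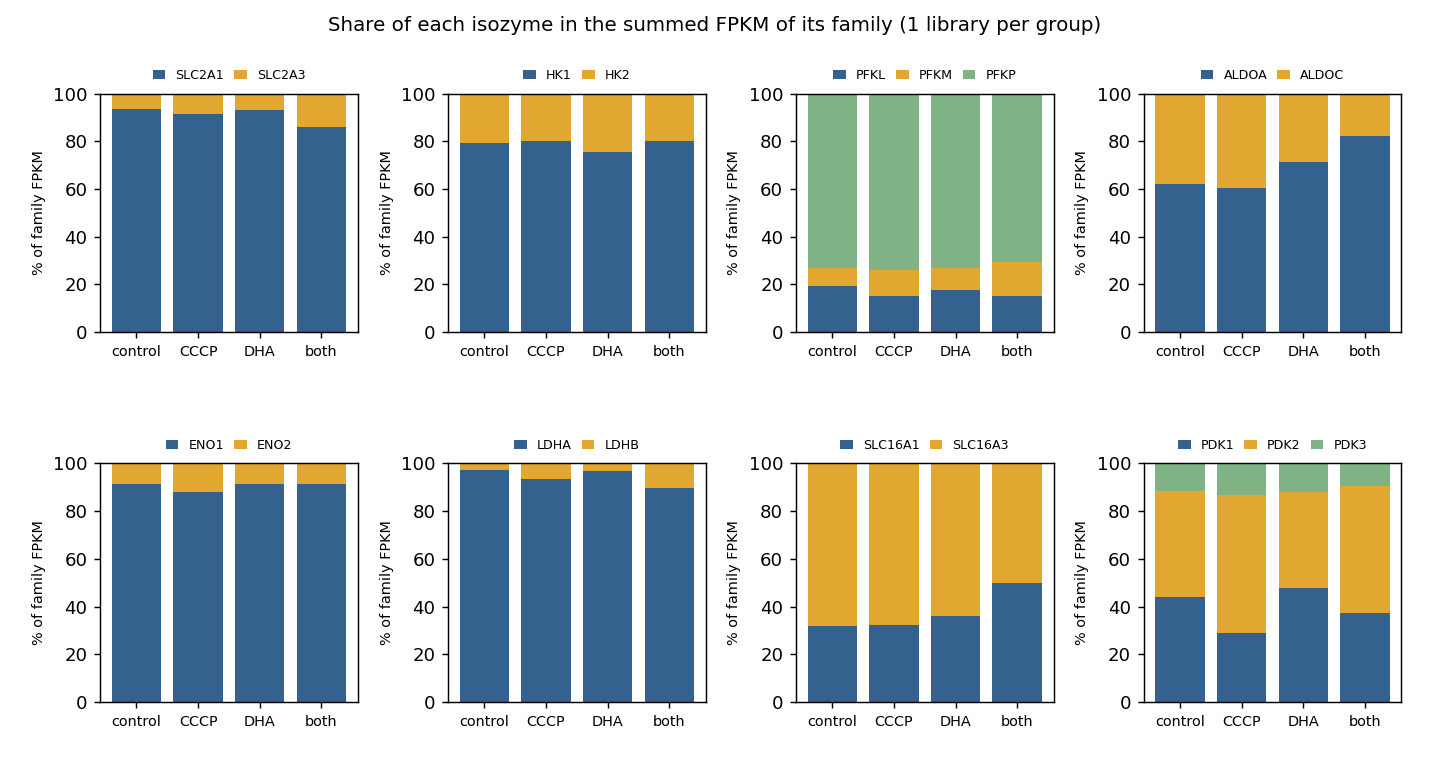
Share of each isozyme in the summed FPKM of its family (y axis, percent) in the 4 libraries, with 1 panel per family and 1 library per bar. LDHB grows from 2.73% to 10.4% and SLC16A1 from 31.8% to 49.9% between control and both compounds, and the hexokinase panel changes little.

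The combination was also set against each single compound, 1 library against 1 library, so library differences are not separated from those of the added compound. Against CCCP, 1 gene (ALDOC) was at least 2-fold lower (4.94% of all genes) and 7 were at least 1.5-fold lower (12.4%). None was 2-fold (3.46%) or 1.5-fold (8.87%) higher. The 7 were SLC2A1, ALDOC, TPI1, PGK1, PGAM1, ENO2 and LDHA, with LDHA 1.63-fold (1.59 to 1.67) lower. The median log2 ratio was -0.27, with 21 genes (63.6%) below CCCP, against 0.01 and 48.8% over all genes, and -0.18 over the 28 genes with a mean of 5 FPKM or more. Against DHA, 8 genes were at least 2-fold lower (3.63%) and 15 at least 1.5-fold lower (9.38%), and none was 2-fold (3.27%) or 1.5-fold (7.64%) higher. LDHA was 3.25-fold (3.19 to 3.32), PGK1 2.82-fold (2.74 to 2.9) and SLC2A1 2.46-fold (2.37 to 2.56) lower. The median was -0.48, with 25 genes (75.8%) below DHA, against 0.00 and 49.2% over all genes.

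CCCP against control and the combination against DHA share no library, so each gives the CCCP difference separately. In both pairs 22 of the 33 genes (66.7%) were lower with CCCP and 6 (18.2%) were higher. Over all genes tested these shares were 30.6 and 30.9%. At least 1.5-fold lower in both pairs were 10 genes (30.3%), against 2.35% of all genes, namely SLC2A1, GPI, TPI1, PGK1, PGAM1, ENO1, PKM, LDHA, SLC16A3 and PDK1. LDHA and PGK1 were at least 2-fold lower in both (6.06%, against 0.614%). For DHA, the corresponding pairs are DHA against control and the combination against CCCP. There 15 genes (45.5%) were lower in both, 9 (27.3%) higher in both and 9 opposite, against 30.6, 32.1 and 35.5% of all genes. None was 1.5-fold lower in both, against 1.5% of all genes.

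**Figure D4:**
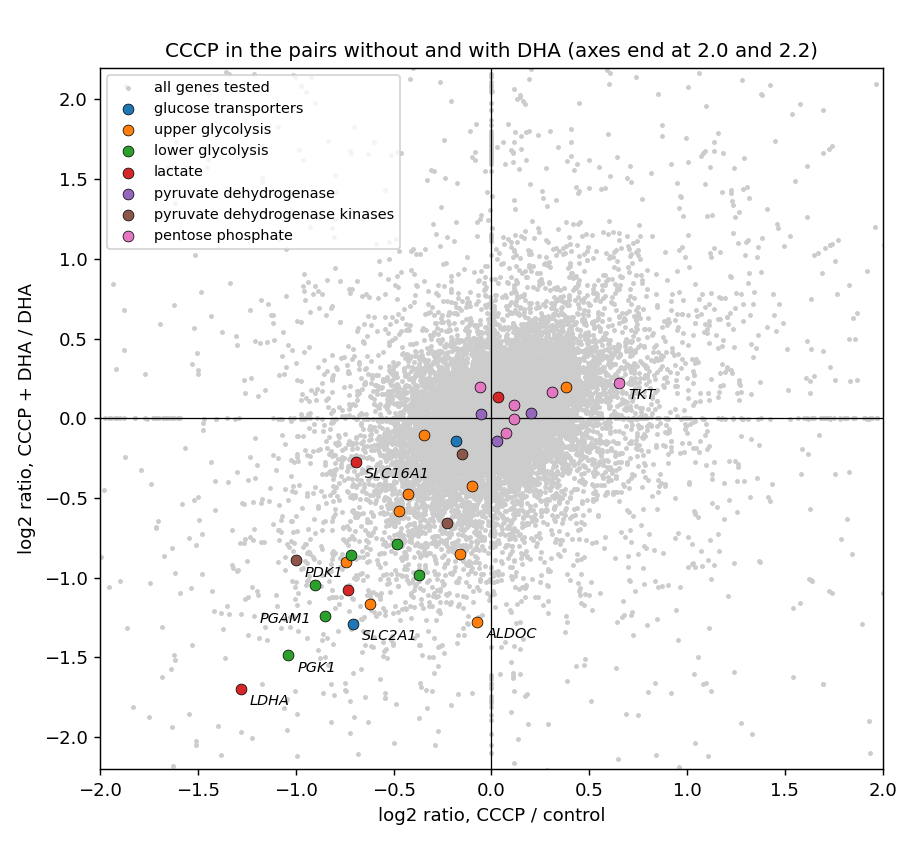
Log2 ratio of CCCP to control (x axis) and of CCCP + DHA to DHA (y axis) for the 33 genes, colored by role, over all 13678 genes tested in grey, of which 194 lie outside the axes. Lower glycolysis, LDHA and SLC2A1 lie in the lower left, and the pentose phosphate genes lie near 0 or in the upper right.

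An additive limma-trend fit over all 4 libraries tested each compound over both of its pairs, with the departure from additivity as the spread and 1 residual degree of freedom. None of the 33 genes passed a Benjamini-Hochberg adjusted p of 0.05 for CCCP (0.095% of all genes did) or for DHA (0.102%). LDHA came nearest for CCCP, at log2 -1.49 (SE 0.20, adjusted p 0.0781), followed by PDK1 at -0.95 (SE 0.14, adjusted p 0.0934) and PGK1 at -1.26 (SE 0.19, adjusted p 0.0963). At an unadjusted p under 0.05 in this limma fit, 16 genes were lower and 1, TKT, was higher with CCCP, against 7.59 and 6.88% of all genes. For DHA 3 were lower and 0 higher, against 6.62 and 5.51%. Limma-voom on the recovered reads called 12 of the 33 genes lower with CCCP and 1, PGAM1, lower with DHA, where it called 5.01 and 3.9% of all genes.

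Departure from additivity is the log2 ratio of the combination to control minus the sum of those of the single compounds. Its median was -0.17 over the 33 genes, 26 of them below 0 (78.8%), and 0.00 over all genes tested, 50.3% of them below 0. The value has no error, since each gene gives 1. ALDOC had the lowest at -1.21, outside the range from -0.94 to 0.83 that held all but 5% of genes on each side, and no other gene of the group lay outside it. Below -0.5 lay ALDOA at -0.69, ENO2 at -0.61, SLC2A1 at -0.58 and TPI1 at -0.54. SLC16A1 had the highest at 0.42, followed by RPIA at 0.26 and HK1 at 0.24.

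Neighboring steps of carbon metabolism gave a mixed picture. Of 20 other isozymes of the same steps, 6 reached 1 FPKM, with a median log2 ratio of -0.16 with both compounds, 1 at least 2-fold lower and 1 higher. The lower one, SLC2A12, a glucose transporter, lies outside the rule for named genes and was singled out after its values were seen. The higher one was HKDC1, a hexokinase relative, at 1.59 FPKM in control, 1.35 under CCCP, 3.45 under DHA and 10.5 under both, 6.57-fold (5.46 to 7.96) above control. Of 13 pyruvate handling genes 11 were measured, none was 2-fold different in any of the 5 comparisons, and their median with both was 0.02. EMB, an ancillary protein of the lactate transporters, was 1.58-fold (1.48 to 1.69) lower with both, and SLC16A7 (MCT2) 1.75-fold (1.54 to 1.98) higher.

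All 16 tricarboxylic acid cycle genes were measured and none was 1.5-fold different in any of the 5 comparisons, with a median of 0.02 with both. Of 10 other pentose phosphate and ribose genes 7 were measured, and only PRPS1, which makes phosphoribosyl pyrophosphate, passed 1.5-fold with both, at 1.83-fold (1.7 to 1.97) lower. Its direction was opposite to that of the 6 pentose phosphate genes above, none of which reached 1.5-fold with both. Of the 7 genes, 2 lay below control with both and 5 above. By intervals alone, H6PD was also lower, by 1.22-fold (1.14 to 1.3), and PGM2 was 1.28-fold (1.16 to 1.42) higher. In gluconeogenesis 2 of 6 genes were measured, and PCK2, the mitochondrial phosphoenolpyruvate carboxykinase, was at 4.53, 6.97, 17.2 and 32.7 FPKM in control, CCCP, DHA and both.

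Of 16 genes in the side branches that leave glycolysis, 14 were measured, with a median log2 ratio of 0.23 with both, 1 at least 2-fold lower and 1 higher. GYS1, glycogen synthase, was at 42.7 FPKM in control, 22 under CCCP, 35.4 under DHA and 17.2 under both, an order of libraries like that of LDHA. UAP1, of the hexosamine pathway, was at 57.8, 66.7, 78.4 and 120 FPKM, highest with both. PGM1 was 1.73-fold (1.61 to 1.85) lower and PYGB, a glycogen phosphorylase, 1.72-fold (1.62 to 1.83) higher with both.

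Regulators of hypoxia-inducible factor were read from 8 genes, 7 of them measured. HIF1A, the oxygen-labile subunit, was at 216 FPKM in control, 285 under CCCP, 199 under DHA and 231 under both, highest with CCCP alone, by 1.32-fold (1.3 to 1.35). EPAS1, which encodes HIF-2 alpha, was at 15.3, 17.6, 29.6 and 82.9 FPKM, 5.43-fold (5.18 to 5.69) above control with both. EGLN1, a prolyl hydroxylase gene that is itself a hypoxia target, was at 16.6, 9.22, 16.5 and 10.4 FPKM, split by CCCP as PDK1 was. These are mRNA levels. Protein was not measured, and the activity of the factor was not tested.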

How the data were processed

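RNA sequencing of 4 OMM2.3 libraries (control, CCCP, DHA, both) was taken as deposited. The authors deposited FPKM per gene, per the file headers, for 58735 genes. The aligner, the counting tool and the build are not named in the sources used here. All identifiers and 58708 names matched GENCODE 29 (Ensembl 94, GRCh38), the source of exon lengths and coordinates. FPKM times exon length gave whole reads for 100% of genes above 0 (tolerance 0.01 reads). The library sizes these imply follow median-of-ratios size factors and lie within 2.78% of summed reads.

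The scale of ratios was log2(FPKM + 0.5). A gene was tested if any library held 1 FPKM or more (13678 genes) and counted as higher or lower at 2-fold or 1.5-fold. Fold differences with an interval are FPKM ratios with exact 95% Clopper-Pearson intervals. The additive fit used limma-trend with Benjamini-Hochberg adjustment over all genes at 0.05, tested on simulated data. The 33 genes, the lists and their roles were chosen with earlier results of these data known. From each other list, up to 4 genes with the largest absolute log2 ratio with both compounds and a mean of at least 1 FPKM could be named. Alternatives were pseudocounts of 0.1 and 1, other filters, scalings and size rules, pseudogene reads added to their parent, limma without trend and voom. A fit without 1 library would leave no residual degree of freedom. Software was limma 3.58.1 (R 4.3.3), scipy 1.17.1, pandas 2.3.3, numpy 2.4.6 and matplotlib 3.10.9 (Python 3.11.15).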

Additional observations from a re-analysis of the deposited data

Results flagged for a closer look

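DHA gave differences of opposite direction in its 2 pairs of libraries, with both counting intervals excluding equality, for 3 of the 33 genes. The share of all genes that meet this rule was not computed. Without regard to intervals, 9 of the 33 genes (27.3%) were opposite, against 35.5% of all genes tested. The difference between the pairs was not tested. ALDOA had a log2 ratio of 0.34 against control and -0.35 when DHA was added to CCCP. TKT was at 0.16 and -0.27, and ENO1 at 0.03 and -0.11. The ENO1 value against control turned below 0 when libraries were scaled to equal summed FPKM.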

How the results depend on the processing

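No paired analysis was possible because each group has 1 library. Pseudocounts of 0.1 and 1 and added pseudogene reads left each count of genes past 2-fold within 1.5 times its value and turned no sign among the 33 genes. Median-of-ratios scaling, which the deposited values already carry, and dropping a filter that all 33 genes passed could not change these ratios. Scaling to equal summed FPKM moved the number at least 2-fold lower with CCCP to 4 and the median of both against CCCP to -0.19, and turned the sign of 1 to 4 genes in each comparison, all with small ratios. Requiring a mean of at least 5 FPKM kept 28 genes. It moved the medians to -0.36 for CCCP and 0.01 for DHA against control, and for both compounds to -0.18 against control, -0.18 against CCCP and -0.35 against DHA. It left 0 genes 2-fold lower against CCCP, since ALDOC was not tested. A size rule of 1.5-fold gave 11 lower and 1 higher with CCCP, 7 lower for both against CCCP and 15 for both against DHA, and one of 4-fold gave 0 everywhere. Without the 5 genes that share at least 20% of their exon bases, chosen after seeing the data, the median of both against DHA was -0.62. In the additive fit, limma without trend and no filter gave 0 genes of the group, and each called 0% of all genes for either compound. A mean of at least 5 FPKM gave 2 that fell with CCCP and 0 with DHA, where 1.32 and 0.503% of all genes fitted were called. Voom gave 12 with CCCP and 1 with DHA, where 5.01 and 3.9% of all genes were called. The cause of the differences between these fits was not tested. ALDOC and PDK3 rest on few reads, which limits their ratios.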
